A study of Mus musculus with 12 samples.

Results

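The genes described here are 6 genes of the Fc receptor system of mouse neutrophils, namely Fcgr1, Fcgr2b, Fcgr3, Fcgr4, Fcer1g and Fcgrt. They are named by symbol, with no threshold on a measured value, although earlier results of these data were known when they were chosen, and all 6 were found among the 55335 genes counted. Neutrophils were sorted from 12 mice of 10 weeks of age in 3 groups of 4, with 1 library per mouse: tumor-associated neutrophils (TANs) from mammary tumors of PyMT mice, TANs from mammary tumors of PyMT-Cxcr2-/- mice, and bone marrow (BM) neutrophils of WT mice. All mice were on the FVB background and were housed under SOPF conditions. PyMT is the polyoma middle T oncogene, carried by both tumor groups, and its promoter is not given in the sources used here. PyMT-Cxcr2-/- mice lack in addition the chemokine receptor Cxcr2 in the whole animal. No tumor-free Cxcr2-/- mice and no BM neutrophils of tumor-bearing mice were compared here. Tumors were minced and digested with a dissociation kit, while marrow cells were taken from the bones by centrifugation. Tumor, tissue of origin and way of isolation therefore cannot be told apart in the comparisons with BM. For PyMT-Cxcr2-/- TANs the Cxcr2 genotype differs from that of BM as well. The study also reported larger tumors with a higher content of neutrophils in PyMT-Cxcr2-/- than in PyMT mice. Cells were enriched for CD11b and then sorted as CD45+ CD11b+ Ly6G+ F4/80- cells.

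Fc receptors bind the constant part of antibodies and let a neutrophil respond to antibody-coated particles. Fcgr1 (CD64) binds monomeric IgG with high affinity, while Fcgr3 and Fcgr4 are activating receptors that respond to IgG in immune complexes. These 3 receptors signal through Fcer1g, the common gamma chain, whose ITAM is phosphorylated by Src family kinases and then recruits the kinase Syk. Fcgr2b is the inhibitory receptor, whose ITIM recruits the phosphatase encoded by Inpp5d. Fcgrt encodes the heavy chain of the neonatal Fc receptor, which pairs with B2m and protects IgG from degradation inside the cell. In mature mouse neutrophils Fcgr3 and Fcgr4 are the main activating receptors, whereas Fcgr1 is mostly known from monocytes and macrophages and is inducible by interferon gamma.

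On the mm10 build, Fcgr2b lies at chr1:170958617-170976547 on the minus strand, Fcgr4 at chr1:171018920-171029761 on the plus strand, Fcgr3 at chr1:171051174-171064935 on the minus strand and Fcer1g at chr1:171229572-171234365 on the minus strand. Fcgr1 lies apart from these at chr3:96282909-96293969 and Fcgrt at chr7:45092990-45103851, both on the minus strand. All 6 are protein-coding genes, and the values given below are counts over their exons. For Fcgr3, 3.53% of the 100-base windows of its transcripts were also found in Fcgr2b, and 3.54% of those of Fcgr2b were shared with Fcgr3 or other genes, while Fcgr1, Fcgr4, Fcer1g and Fcgrt shared 0 windows. Reads from the shared stretches of Fcgr2b and Fcgr3 cannot be assigned with certainty. Of the exon bases of Fcgr2b, 2.68% also lie under Gm38204 on the opposite strand.

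The 250 bases before the RefSeq start are printed for the 4 genes called in PyMT TANs against BM neutrophils, each 5′ to 3′ on the strand of its gene, from the RefSeq promoter table on build GRCm38.p6, the build of mm10. Capitals mark matches to 4 motifs searched on both strands, which do not overlap each other in these windows: the interferon gamma-activated site GAS (TTCNNNGAA), the interferon-stimulated element ISRE (GAAA, any 2 bases, GAAA), a PU.1 site (GAGGAAG) and a C/EBP site (TTGCNNAA).
Fcgr1 (chr3:96293970-96294219): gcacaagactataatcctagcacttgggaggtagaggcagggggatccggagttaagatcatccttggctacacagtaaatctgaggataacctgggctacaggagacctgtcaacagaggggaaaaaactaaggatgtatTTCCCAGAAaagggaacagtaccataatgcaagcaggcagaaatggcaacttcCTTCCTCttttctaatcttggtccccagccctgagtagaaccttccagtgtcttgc
Fcgrt (chr7:45103823-45104072): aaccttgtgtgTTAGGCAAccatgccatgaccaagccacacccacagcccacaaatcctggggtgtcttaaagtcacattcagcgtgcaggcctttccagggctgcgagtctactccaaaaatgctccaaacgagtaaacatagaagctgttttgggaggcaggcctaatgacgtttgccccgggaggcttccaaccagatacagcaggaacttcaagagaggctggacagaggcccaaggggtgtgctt
Fcgr3 (chr1:171059395-171059644): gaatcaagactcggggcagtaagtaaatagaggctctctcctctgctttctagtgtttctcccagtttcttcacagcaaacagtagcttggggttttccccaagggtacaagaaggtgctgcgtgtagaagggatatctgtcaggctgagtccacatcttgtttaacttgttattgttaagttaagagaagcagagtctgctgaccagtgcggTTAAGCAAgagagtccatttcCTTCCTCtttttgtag
Fcgr4 (chr1:171018676-171018925): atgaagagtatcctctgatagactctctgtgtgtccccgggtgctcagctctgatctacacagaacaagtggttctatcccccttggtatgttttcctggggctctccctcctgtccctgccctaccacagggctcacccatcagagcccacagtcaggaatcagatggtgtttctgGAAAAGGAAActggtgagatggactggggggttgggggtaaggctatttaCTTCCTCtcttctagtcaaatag
The Fcgr1 window held a GAS motif at -109 and a PU.1 motif at -56 from the start. In the Fcgr4 window an ISRE motif was found at -73 and a PU.1 motif at -23. The Fcgr3 window, which lies inside the annotated span of the gene, held a C/EBP motif at -37 and a PU.1 motif at -16. From another RefSeq start of Fcgr3, whose window is not printed, the same motifs were at -28 and -7. The Fcgrt window held only a C/EBP motif at -239. For Fcgr2b and Fcer1g no match to these letters was found in the same window. Of 32851 promoters in the table, 7.02% held the GAS letters, 2.98% the ISRE letters, 10.6% the PU.1 letters and 9.56% the C/EBP letters, so that a match is a description of the sequence alone.

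Libraries held 25032704 to 51351569 counts on genes, and a level of 3 counts corresponded to 0.0584 to 0.12 CPM (counts scaled to the library total), a floor for counting error alone. Nothing in the labels says more of the replicates than that they are separate samples of a group, and the study calls them mice. Levels are CPM with TMM factors over the 12 libraries. Cxcr2, the targeted gene, was between 1030 and 1536 CPM in PyMT TANs, between 8.97 and 10.1 in TANs of PyMT-Cxcr2-/- mice and between 1818 and 2250 in BM neutrophils. Neutrophil markers (9 genes) were detected in every group, with a summed level of 10555 to 16527 CPM in PyMT TANs, 17180 to 28013 in TANs of PyMT-Cxcr2-/- mice and 73077 to 95861 in BM neutrophils. Macrophage markers (12 genes, among them Adgre1, Csf1r, C1qa, C1qb, C1qc, Mrc1, Ms4a7, Mertk, Siglec1, Cd68 and Vsig4) summed to 1384 to 2834 CPM in PyMT TANs, 1426 to 2449 in TANs of PyMT-Cxcr2-/- mice and 245 to 337 in BM neutrophils, and 0 of them were at 0 in all libraries of a group. Adgre1, which encodes F4/80, the antigen used to keep macrophages out of the sort, was between 69.2 and 187 CPM in PyMT TANs, 78.0 and 143 in TANs of PyMT-Cxcr2-/- mice and 8.64 and 12.1 in BM neutrophils. B cell markers summed to at most 34.6 CPM and NK cell markers to at most 3.26 CPM in any library. T cell markers summed to at most 44.5 CPM in TANs and 209 to 244 CPM in BM neutrophils. Only 2 of these 6 genes had a mean of 1 CPM or more in each group, so that the sum is not that of the whole list. Endothelial markers summed to at most 36.5 CPM in any library. Of the mast cell markers, Cpa3, Mcpt4, Tpsb2 and Cma1 were at most at 1.13 CPM in any library, while Kit and Hdc were detected in every library. In bulk libraries, fewer cells of a type and less RNA per cell cannot be told apart.

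In BM neutrophils the transcripts of the common gamma chain and of the activating receptors Fcgr3 and Fcgr4 were the most abundant of the 6 per length. There Fcgr1 and Fcgrt were close to absent. In TANs of both genotypes Fcgr1 and Fcgrt were present, Fcgr3 was lower, and Fcgr2b was at about the level of BM neutrophils. On the scale of RPKM (CPM over the length of the union of exons in kilobases), BM neutrophils had 542 ± 71.1 (SD, n = 4) for Fcer1g, 354 ± 34 for Fcgr3, 86.9 ± 6.71 for Fcgr4, 24 ± 2.5 for Fcgr2b, 0.249 ± 0.105 for Fcgrt and 0.124 ± 0.0982 for Fcgr1. Each of the first 4 was above the next gene in the order in 4 of 4 mice without overlap of the ranges, whereas Fcgrt and Fcgr1 overlapped.

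The order of the first 4 genes was the same in TANs. In PyMT TANs the RPKM was 343 ± 30.2 for Fcer1g, 177 ± 17.6 for Fcgr3, 36.5 ± 7.24 for Fcgr4, 22.3 ± 6.90 for Fcgr2b, 13.2 ± 13.2 for Fcgrt and 11.6 ± 3.63 for Fcgr1. The ranges of Fcgr2b and Fcgrt overlapped, as did those of Fcgrt and Fcgr1. In PyMT-Cxcr2-/- TANs it was 351 ± 27.4 for Fcer1g, 203 ± 11.3 for Fcgr3, 54.9 ± 7.11 for Fcgr4, 22.8 ± 5.42 for Fcgr2b, 12.1 ± 3.6 for Fcgr1 and 8.95 ± 2.44 for Fcgrt, and only the last 2 overlapped. The order of the group means did not change with scaling by library totals or with the length of the longest transcript, but with the latter Fcgr4 and Fcgr2b had nearly the same mean RPKM in PyMT TANs (36.48 and 36.45). With that length Fcgr4 over Fcgr2b was 1.65, 1.06, 0.908 and 0.691 in PyMT TANs and 1.34, 0.969, 1.86 and 2.08 in PyMT-Cxcr2-/- TANs, so that Fcgr4 was below Fcgr2b in PyMT mice 3 and 4 and in PyMT-Cxcr2-/- mouse 2.

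**Figure D1:**
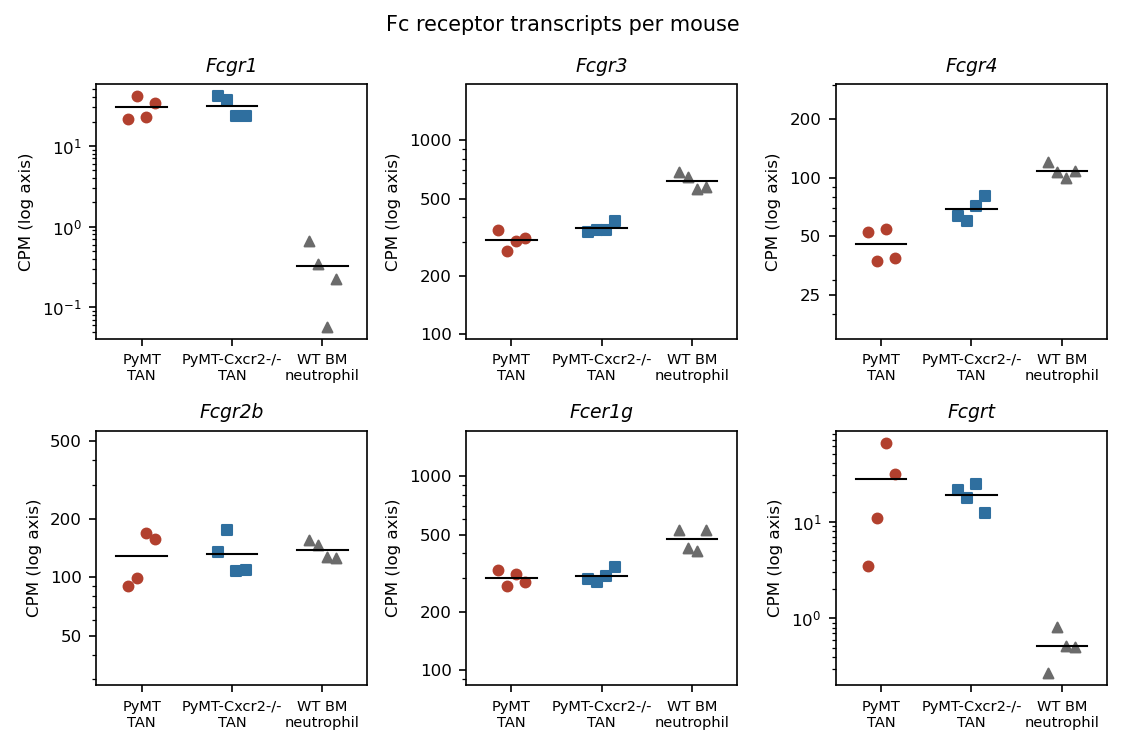
CPM of each gene (log axis) in each of the 12 mice; a point is 1 mouse, circles are PyMT TANs, squares PyMT-Cxcr2-/- TANs, triangles BM neutrophils, and the line is the group mean. Fcgr1 and Fcgrt are under 1 CPM in all 4 BM libraries and above 3 CPM in all 8 TAN libraries, while Fcgr2b overlaps between the groups.

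The 3 comparisons were made with edgeR's quasi-likelihood test on the counts of 2 groups at a time, and a gene was called at a Benjamini-Hochberg adjusted p under 0.05 over all genes tested and a fold change of 1.5 or more. Between PyMT TANs and BM neutrophils, 4 of the 6 genes were called, 2 higher (Fcgr1 and Fcgrt) and 2 lower (Fcgr3 and Fcgr4) in TANs, against 53.3% of all 17153 genes tested, 30.1% higher and 23.2% lower. Between PyMT-Cxcr2-/- TANs and BM neutrophils, 3 were called, 2 higher (Fcgr1 and Fcgrt) and 1 lower (Fcgr3), against 59.5% of 17732 genes, 34.4% higher and 25.1% lower. Between the TANs of the 2 genotypes, edgeR called 0 of the 6, against 1.98% of 18463 genes, 1.38% higher and 0.596% lower in PyMT-Cxcr2-/- TANs. Between the genotypes DESeq2 called 1 of the 6, Fcgr4, against 1034 of 32315 genes. The share of the 6 that edgeR called was near that of all genes, and the comparisons with BM share their 4 control libraries. In PyMT TANs against BM neutrophils the libraries of the groups did not overlap for 5 of the 6, 2 higher and 3 lower, where this held for 58.2% of all genes, 28.4% higher and 29.7% lower. For PyMT-Cxcr2-/- TANs it was again 5 of the 6, 2 higher and 3 lower, against 65.8% of all genes, 32.5% higher and 33.3% lower. All 6 genes passed the filter on low counts in the 3 comparisons.

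Fcgr1 rose from near absence to a moderate level in TANs. In the 4 WT BM libraries it was at 0.659, 0.342, 0.0571 and 0.224 CPM, from 22, 11, 2 and 8 reads. In PyMT TANs it was at 21.5, 41.2, 22.9 and 34.3 CPM, and in TANs of PyMT-Cxcr2-/- mice at 41.4, 37.2, 23.7 and 23.1 CPM. Every TAN library was above every BM library, and the lowest BM library was under the level of 3 counts. The log2 fold change against BM was 6.63 in PyMT TANs (SE 0.51, 95% interval 5.50 to 7.76, adjusted p = 1.28e-06 by edgeR) and 6.74 in TANs of PyMT-Cxcr2-/- mice (SE 0.42, 5.81 to 7.66, adjusted p = 6.86e-08). The difference between the genotypes was within the spread between mice, with a log2 fold change of 0.03 and a 95% interval of -0.54 to 0.59. Of the summed RPKM of the 3 activating receptors, Fcgr1 made 5.26% ± 2.08 in PyMT TANs, 4.53% ± 1.51 in TANs of PyMT-Cxcr2-/- mice and 0.0268% ± 0.0194 in BM neutrophils.

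Fcgrt, the neonatal receptor, also rose in TANs but was uneven among PyMT mice. It was at 0.270, 0.809, 0.514 and 0.503 CPM in BM neutrophils and at 21.1, 17.7, 24.3 and 12.3 CPM in TANs of PyMT-Cxcr2-/- mice. In PyMT TANs it was at 3.46, 11, 65.6 and 30.8 CPM, so that the range of this group held that of the PyMT-Cxcr2-/- TANs. Against BM the log2 fold change was 5.82 in PyMT TANs (SE 0.86, adjusted p = 0.00015 by edgeR) and 5.28 in TANs of PyMT-Cxcr2-/- mice (SE 0.31, adjusted p = 1.54e-08). Between the genotypes it was -0.60 (SE 0.74, 95% interval -2.28 to 1.08, adjusted p = 0.81), and without PyMT mouse 3 it was 0.29. B2m, its light chain, was at 630 ± 41.3 CPM in PyMT TANs, 583 ± 28.8 in TANs of PyMT-Cxcr2-/- mice and 765 ± 115 in BM neutrophils, and did not pass the thresholds, with log2 fold changes of -0.20 and -0.27 against BM.

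Macrophage markers moved with Fcgr1 and Fcgrt between BM and TANs. Of the 12 markers, 12 were called higher in PyMT TANs and 11 in TANs of PyMT-Cxcr2-/- mice, against 30.1% and 34.4% of all genes. The median log2 fold changes of these markers were 5.57 and 5.53. C1qa, a complement gene of tissue macrophages, was at 156, 351, 399 and 286 CPM in PyMT TANs, at 328, 339, 197 and 151 CPM in TANs of PyMT-Cxcr2-/- mice and at 0.60 to 2.05 CPM in BM neutrophils. Mrc1, the macrophage mannose receptor, was at 15.7, 30.8, 245 and 202 CPM in PyMT mice 1 to 4, and the order of these mice by Mrc1 was their order by Fcgrt. Mrc1 was at 109, 89.6, 129 and 42.7 CPM in TANs of PyMT-Cxcr2-/- mice and at 1.45 to 3.70 CPM in BM neutrophils, and the order by Mrc1 and by Fcgrt was again the same among the knockout mice. Mrc1 was also the gene nearest to Fcgrt in profile over these libraries, so that the shared order is a description. C1qa did not follow this order in either group, with its highest level in PyMT-Cxcr2-/- mouse 2, where Fcgrt was highest in mouse 3. Monocyte markers (Ccr2, F13a1, Cx3cr1 and Ly6c2) summed to 198 to 547 CPM in PyMT TANs and 359 to 560 CPM in PyMT-Cxcr2-/- TANs. These sums were below those of BM neutrophils, with 652 to 863 CPM. However, 3 of the 4 were called higher and only Ly6c2 lower in both TAN groups. These calls stood against 30.1% higher and 23.2% lower over all genes in PyMT TANs, and 34.4% and 25.1% in PyMT-Cxcr2-/- TANs. Dendritic cell markers (6 genes) summed to at most 18.5 CPM in any library. The part of other cells' transcripts in the levels of Fcgr1 and Fcgrt was not tested.

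**Figure D2:**
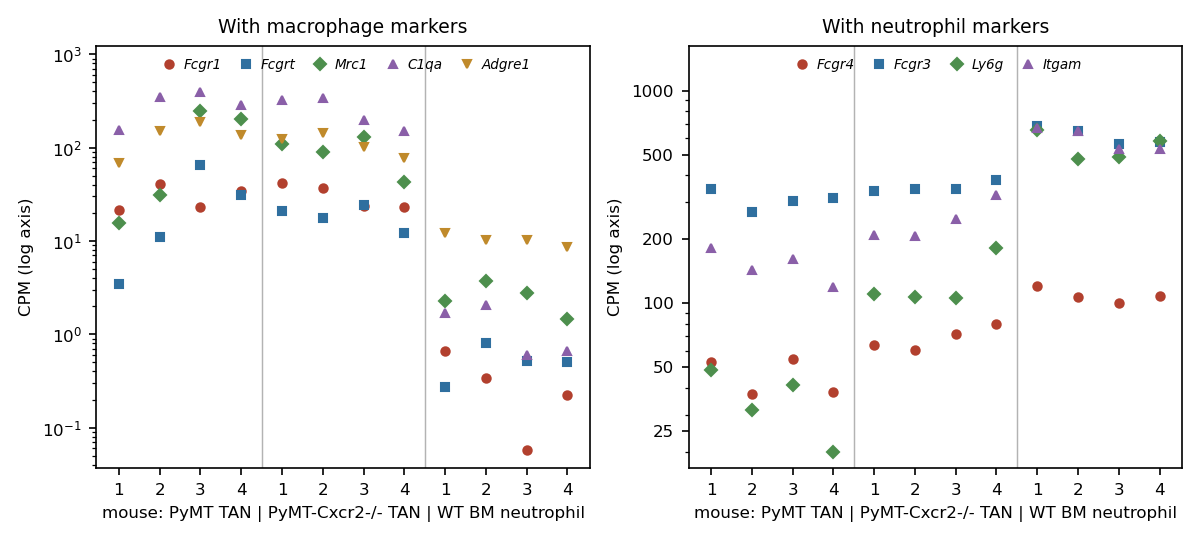
CPM (log axis) in each of the 12 mice, in the order of their labels within each group; left, Fcgr1 and Fcgrt with the macrophage markers Mrc1, C1qa and Adgre1; right, Fcgr3 and Fcgr4 with the neutrophil markers Ly6g and Itgam. In the PyMT group Fcgrt and Mrc1 are lowest in mouse 1 and highest in mouse 3, and Ly6g is higher in every PyMT-Cxcr2-/- TAN library than in every PyMT TAN library.

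Fcgr3, the most abundant of the receptors, was lower in TANs of both genotypes. It was at 682, 644, 560 and 570 CPM in BM neutrophils, at 343, 269, 304 and 314 CPM in PyMT TANs and at 337, 346, 345 and 381 CPM in TANs of PyMT-Cxcr2-/- mice. All 8 TAN libraries were below all 4 BM libraries, while the ranges of the genotypes overlapped. The log2 fold change against BM was -0.92 in PyMT TANs (SE 0.12, adjusted p = 6.36e-05 by edgeR) and -0.68 in TANs of PyMT-Cxcr2-/- mice (SE 0.10, adjusted p = 6.13e-05). Between the genotypes it was 0.16 (95% interval -0.11 to 0.43, adjusted p = 0.627). Scaled by library totals alone, the fall was -0.47 and -0.50 and missed the fold limit. The median of all genes tested then moved from 0.09 to 0.53 in PyMT TANs. A change of scaling moves all genes nearly alike. The distance of Fcgr3 to that median, -1.0 under either scaling, therefore cannot decide between the scalings.

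Fcgr4 was lower in PyMT TANs, and PyMT-Cxcr2-/- TANs lay between these and BM neutrophils. BM neutrophils had 121, 107, 100.3 and 108 CPM, PyMT-Cxcr2-/- TANs 63.9, 60.1, 71.4 and 80.3 CPM, and PyMT TANs 52.8, 37.4, 54.5 and 38.5 CPM. No library of a group overlapped with another group. Against BM the log2 fold change was -1.17 in PyMT TANs (SE 0.15, adjusted p = 5.05e-05 by edgeR), past both thresholds. In PyMT-Cxcr2-/- TANs it was -0.54 (SE 0.10, adjusted p = 0.000401), past the adjusted p but under the 1.5-fold limit. Adjusted for the trend of each library with GC content and length, Fcgr4 was at -0.75 in PyMT TANs, still called, and at -0.26 in PyMT-Cxcr2-/- TANs (adjusted p = 0.0422 by edgeR, and 0.0622 with the replicate block added). Library totals gave -0.73 and -0.37. In PyMT-Cxcr2-/- TANs it was called with 12 libraries in a single fit (-0.68), without PyMT-Cxcr2-/- mouse 4 (-0.62) and without BM mouse 3 (-0.59). Between the genotypes Fcgr4 was 0.55 on the log2 scale above in TANs of PyMT-Cxcr2-/- mice, higher in all 4 mice (SE 0.17, 95% interval 0.19 to 0.92), with an unadjusted p of 0.00649 and an adjusted p of 0.12 by edgeR, which missed the threshold. DESeq2 gave 0.61 and an adjusted p of 0.0346, while the adjusted p over all other alternatives was between 0.0354 and 0.605. The lowest of these, from 12 libraries in a single edgeR fit, came with 0.56, under the fold limit. The groups did not overlap for 11.9% of all genes in this comparison, 6.89% higher and 5.05% lower in TANs of PyMT-Cxcr2-/- mice.

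Several neutrophil markers were higher in TANs of PyMT-Cxcr2-/- mice than in PyMT TANs, as Fcgr4 was, but not all. Of the 9 markers, 5 were called higher in TANs of PyMT-Cxcr2-/- mice (Ly6g, Mmp8, Retnlg, S100a8 and S100a9), against 1.38% of all genes. Cxcr2 itself was called lower, against 0.596% of all genes. Itgam (0.67, adjusted p = 0.0852 by edgeR) and Csf3r (0.34, adjusted p = 0.405) were not called. Cxcr4 went the other way without overlap of the groups (-0.59, adjusted p = 0.0687) and was not called. Ly6g had a log2 fold change of 1.81 (adjusted p = 0.0113 by edgeR). Ly6g was at 48.4, 31.5, 41.3 and 20.0 CPM in PyMT TANs, at 111, 107, 106 and 183 CPM in TANs of PyMT-Cxcr2-/- mice and at 477 to 655 CPM in BM neutrophils. Against BM, where 23.2% and 25.1% of all genes were called lower, this held for 7 of the 9 markers in PyMT TANs and 8 in TANs of PyMT-Cxcr2-/- mice. Their part in the levels of Fcgr3 and Fcgr4 was not tested.

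Fcgr2b, the inhibitory receptor, was called in no comparison. It was at 156, 146, 127 and 126 CPM in BM neutrophils, at 90.3, 99.7, 169 and 157 CPM in PyMT TANs and at 135, 175, 108 and 109 CPM in TANs of PyMT-Cxcr2-/- mice. The ranges of the 3 groups overlapped, and the TANs were more spread than BM neutrophils. Its log2 fold change against BM was -0.01 in PyMT TANs (95% interval -0.47 to 0.45) and 0.05 in TANs of PyMT-Cxcr2-/- mice (-0.28 to 0.38), and between the genotypes it was -0.01 (-0.52 to 0.50). Among PyMT mice the order by Fcgr2b was that by Mrc1 and Fcgrt, which did not hold among PyMT-Cxcr2-/- mice.

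Fcer1g, the signalling chain, was lower in TANs, in PyMT TANs by a fold change next to the 1.5-fold limit. It was at 529, 428, 412 and 525 CPM in BM neutrophils, at 328, 271, 315 and 284 CPM in PyMT TANs and at 295, 286, 307 and 341 CPM in TANs of PyMT-Cxcr2-/- mice. The TAN libraries were all below the BM libraries. The log2 fold change was -0.58 in PyMT TANs (SE 0.13, adjusted p = 0.00232 by edgeR) and -0.51 in TANs of PyMT-Cxcr2-/- mice (SE 0.11, adjusted p = 0.00146), where 1.5-fold is 0.585, and between the genotypes it was 0.00 (95% interval -0.27 to 0.28). In PyMT TANs Fcer1g passed both thresholds with RLE factors (-0.65), without the filter (-0.66), with 12 libraries in a single fit (-0.65), with DESeq2 (-0.66), and without PyMT mouse 1 (-0.63) or 3 (-0.63) or BM mouse 2 (-0.68) or 3 (-0.69). Library totals gave -0.13 (adjusted p = 0.305 by edgeR) in PyMT TANs and -0.32 in TANs of PyMT-Cxcr2-/- mice, where the fit of 12 libraries gave -0.64, past both thresholds. With each library adjusted for its trend with GC content and length, the log2 fold change was 0.03 and -0.05. The cause was not tested. Fcgr3 was called in PyMT TANs after this adjustment (-0.72) and missed the fold limit in TANs of PyMT-Cxcr2-/- mice (-0.55).

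**Figure D3:**
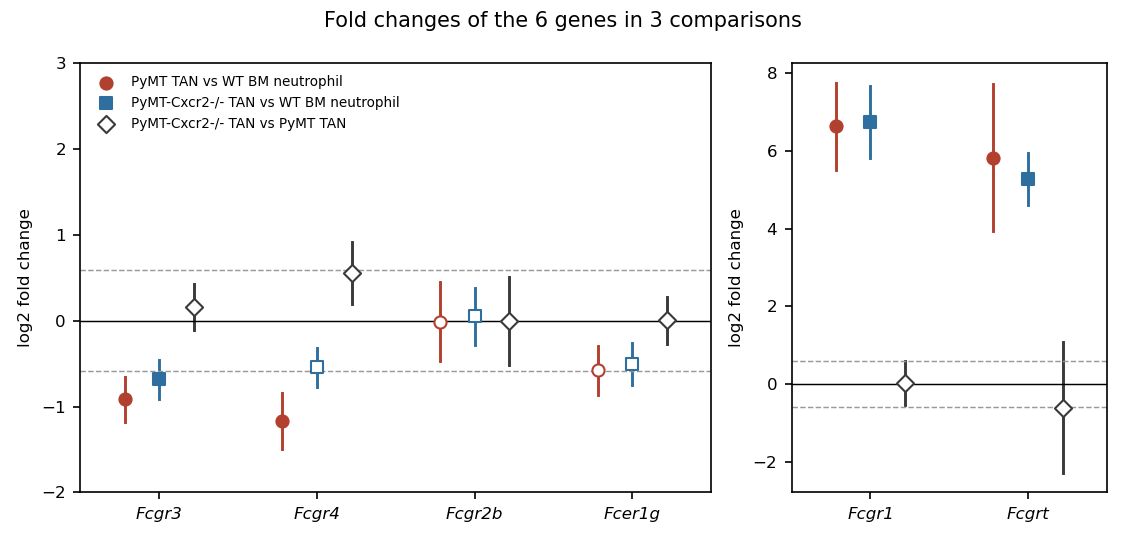
Log2 fold change of each gene with its 95% interval in the 3 comparisons (edgeR, 4 mice per group); filled symbols passed both thresholds, and the dashed lines mark 1.5-fold. Fcgr1 and Fcgrt are above 5 in both comparisons with BM, and no symbol is filled between the genotypes.

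The balance of activating to inhibitory receptor transcripts was compared per length in each mouse. These are ratios of bulk libraries, and the part of other cells' transcripts in them, that in Fcgr2b included, was not tested. The summed RPKM of Fcgr1, Fcgr3 and Fcgr4 over that of Fcgr2b was 18.2, 18.1, 18.3 and 19.0 in BM neutrophils, 15.9, 11.7, 7.77 and 8.28 in PyMT TANs and 11.2, 8.66, 14.2 and 15.6 in TANs of PyMT-Cxcr2-/- mice. All TAN libraries were below all BM libraries, while the genotypes overlapped, with means of 10.9 ± 3.76 and 12.4 ± 3.09. The BM libraries were within 0.422 (SD) of their mean of 18.4. Most of this ratio was Fcgr3, which was 14.8 ± 0.204 times Fcgr2b in BM neutrophils, 8.58 ± 3.03 times in PyMT TANs and 9.31 ± 2.29 times in TANs of PyMT-Cxcr2-/- mice. With the length of the longest transcript, Fcgr3 over Fcgr2b was 11.6, 6.77 and 7.35 in the same order. The summed ratio was then 13.9, 8.19 and 9.23, so its size depends on the length used. Adjusted for GC content and length, Fcgr3 and Fcgr2b were at -0.72 and -0.23 in PyMT TANs against BM on the log2 scale, in place of -0.92 and -0.01. Among the activating receptors Fcgr3 made 80.2% ± 0.856 of the summed RPKM in BM neutrophils, 78.6% ± 1.74 in PyMT TANs and 75.2% ± 0.778 in TANs of PyMT-Cxcr2-/- mice.

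The signalling chain was set against the receptors that need it in the same way. Fcer1g over the summed activating receptors was 1.51, 1.55, 1.58 and 1.44 in PyMT TANs and 1.30, 1.25, 1.33 and 1.33 in TANs of PyMT-Cxcr2-/- mice, without overlap. In BM neutrophils it was 1.24, 1.07, 1.17 and 1.45, which overlapped with both. These ratios are descriptions over members of the same gene set and were not tested.

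**Figure D4:**
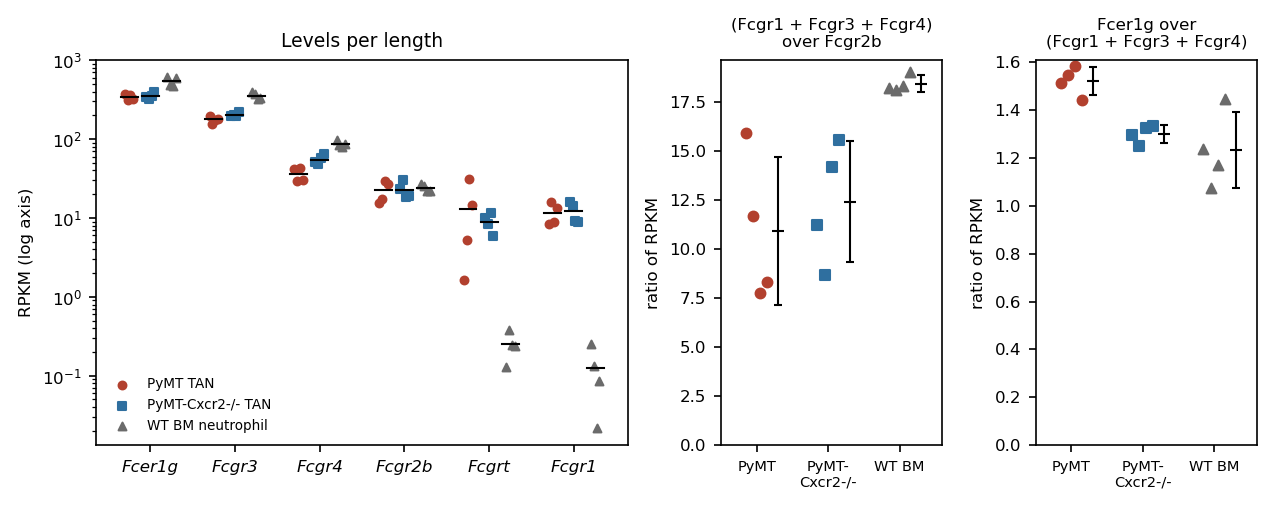
Left, RPKM of each gene (log axis) per mouse with the group mean as a line; middle and right, ratios of RPKM per mouse with mean and SD of 4 mice beside the points. The activating over inhibitory ratio is between 18.1 and 19.0 in the BM libraries and between 7.77 and 15.9 in the TAN libraries.

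The genes that act downstream of the receptors were described from a list of 50, all of which passed the filter. Between PyMT TANs and BM neutrophils, 9 were called higher and 24 lower, 66.0% against 53.3% of all genes (30.1% higher and 23.2% lower). Their median log2 fold change was -0.54 against 0.09 for all genes tested. In PyMT-Cxcr2-/- TANs, 12 were called higher and 17 lower, 58.0% against 59.5% of all genes (34.4% higher and 25.1% lower). The median of the 50 was then -0.23 against 0.09. Scaled by library totals alone, the split in PyMT TANs was 14 higher and 14 lower, where 6674 of 17153 genes were called higher and 2488 lower. Macrophage and epithelial markers were higher in TAN libraries than in BM libraries. The part of other cells' transcripts in the levels of the 50 genes was not tested.

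Of 9 kinases, 3 were called higher and 2 lower in PyMT TANs, and 4 higher and 1 lower in TANs of PyMT-Cxcr2-/- mice. The shares of all genes were 30.1% higher and 23.2% lower in PyMT TANs, and 34.4% and 25.1% in PyMT-Cxcr2-/- TANs. Src, a founding member of the family that phosphorylates the ITAM, rose from 0.441 ± 0.298 CPM in BM neutrophils to 17.5 ± 7.25 in PyMT TANs and 18.7 ± 6.69 in TANs of PyMT-Cxcr2-/- mice (log2 fold changes 5.39 and 5.54). Fyn rose by 2.82 and 2.90 on the log2 scale. Syk, the kinase that docks on the phosphorylated chain, was at 1538 ± 226 CPM in PyMT TANs, 1851 ± 189 in TANs of PyMT-Cxcr2-/- mice and 1226 ± 116 in BM neutrophils, and passed the thresholds only for PyMT-Cxcr2-/- TANs against BM, with log2 fold changes of 0.41 and 0.71. Syk did not pass between the genotypes (0.23, adjusted p = 0.518 by edgeR).

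Of 28 adaptors and effectors, 4 were called higher and 14 lower in PyMT TANs, and 5 higher and 10 lower in TANs of PyMT-Cxcr2-/- mice. Over all genes this held for 30.1% and 23.2% in PyMT TANs, and for 34.4% and 25.1% in PyMT-Cxcr2-/- TANs. Adaptors and effectors that rose included Vav2, an exchange factor of small GTPases (5.01 and 5.02), the adaptor Lat2 (2.69 and 2.96) and the phospholipase Plcg1 (2.03 and 2.21). Rac2, the GTPase of the neutrophil oxidase, fell by 1.83 and 1.05, and Was, which links Cdc42 to actin, fell by 1.82 and 1.16. Tyrobp (DAP12), the other ITAM chain of myeloid cells, was at 474 ± 31.1 CPM in PyMT TANs, 555 ± 59.1 in TANs of PyMT-Cxcr2-/- mice and 1146 ± 163 in BM neutrophils, with log2 fold changes of -1.19 and -0.93, both called.

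Of 13 inhibitors, 2 were called higher and 8 lower in PyMT TANs, and 3 higher and 6 lower in TANs of PyMT-Cxcr2-/- mice. Over all genes this held for 30.1% and 23.2% in PyMT TANs, and for 34.4% and 25.1% in PyMT-Cxcr2-/- TANs. The adaptor Dok2 fell by 2.24 and 1.18, Dok3 by 1.96 and 1.39, and the phosphatase Ptpn6 (SHP-1) by 1.01 and 0.92, while the ubiquitin ligase Cblb rose by 1.66 and 2.06. Inpp5d (SHIP1), the phosphatase that Fcgr2b recruits, was not called, at 599 ± 74.0, 633 ± 67.0 and 532 ± 47.1 CPM in PyMT TANs, PyMT-Cxcr2-/- TANs and BM neutrophils.

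Between the genotypes, 1 of the 50 was called, a share of 2.0% against 1.98% of all genes, so that the count was that of the background. Plcg2, the phospholipase downstream of Syk in myeloid cells, was at 172, 205, 133 and 128 CPM in PyMT TANs and at 261, 252, 311 and 345 CPM in TANs of PyMT-Cxcr2-/- mice, without overlap (log2 fold change 0.84, adjusted p = 0.037 by edgeR). In BM neutrophils it was higher than in either, at 532 ± 79.2 CPM. DESeq2 called 5 of the 50, all higher in TANs of PyMT-Cxcr2-/- mice, against 1034 of 32315 genes. The adjustment for GC content and length left 0, and without PyMT mouse 1 there were 3. Without PyMT mouse 2, 3 or 4 or PyMT-Cxcr2-/- mouse 1, 3 or 4 the count was 0. For 10 of the 50 the genotypes did not overlap, all higher in TANs of PyMT-Cxcr2-/- mice, against 6.89% of all genes.

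**Figure D5:**
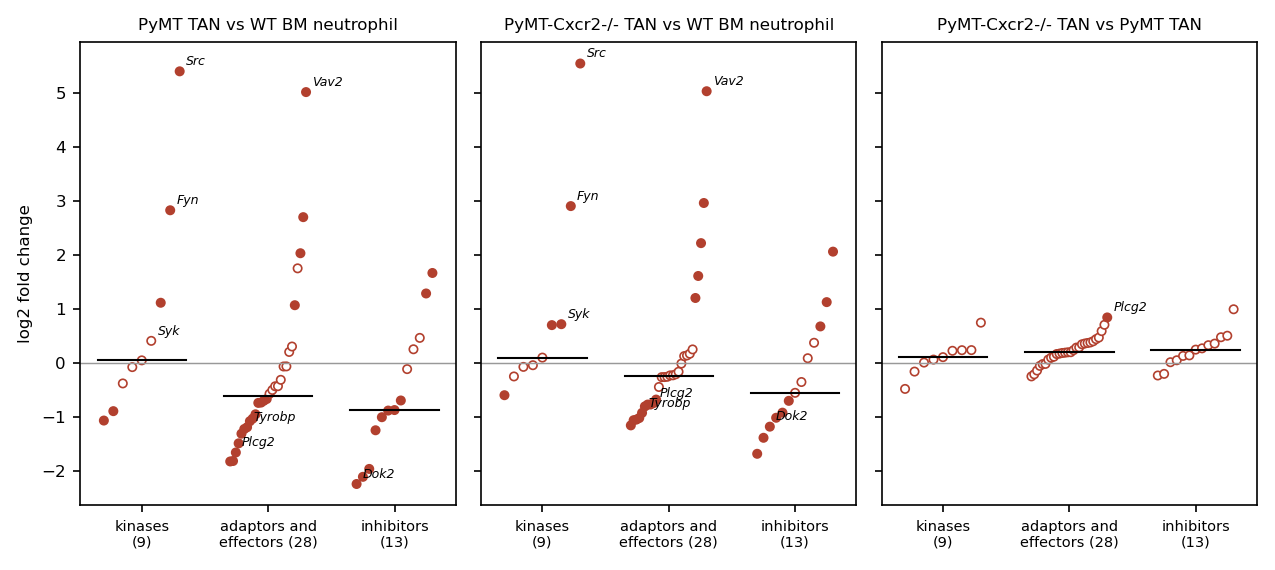
Log2 fold change of the 50 signalling genes by role in the 3 comparisons, sorted within each role; a point is 1 gene, filled where it passed both thresholds, and the line is the median of the role. Adaptors and inhibitors have medians below 0 against BM, while Src and Vav2 lie above 5.

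Fcer1g also serves other receptors. A list of 12 receptor genes was set beside it, not all of which signal through Fcer1g, since it also holds Clec7a and the inhibitory Pirb. Pira1 and Pira6 were not matched, Oscar and Gp6 did not pass the filter, and 8 were tested. Of these 8, 5 were called higher and 3 lower in PyMT TANs, and 5 higher and 2 lower in TANs of PyMT-Cxcr2-/- mice, where of all genes 30.1% were called higher and 23.2% lower in the former and 34.4% and 25.1% in the latter. In PyMT TANs Clec7a was among those called higher and Pirb among those called lower. The 4 C-type lectin receptors of the list rose in both: Clec4n (Dectin-2) was at 223 ± 35.8 CPM in PyMT TANs, 115 ± 13.9 in TANs of PyMT-Cxcr2-/- mice and 13.3 ± 1.63 in BM neutrophils, and Clec4e (Mincle) at 1480 ± 302, 1392 ± 232 and 344 ± 88.7 CPM. Pira2 fell by 2.02 and 1.0 on the log2 scale, and its family has near-identical members, so that its counts are uncertain. Between the genotypes Clec4n was lower in TANs of PyMT-Cxcr2-/- mice (log2 fold change -0.99, adjusted p = 0.0126 by edgeR) and Pirb, the inhibitory member of the family of Pira2, was higher (0.75, adjusted p = 0.0425), while Fcer1g itself was at 0.00. The part of other cells' transcripts in the levels of these receptor genes was not tested.

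Of 11 further Fc receptor genes, 7 were tested, and Fcer1a and Ms4a2, of the IgE receptor of mast cells, did not pass the filter. Fcrls, an Fc receptor-like gene known from macrophages and microglia, was at 26.6, 108, 114 and 115 CPM in PyMT TANs and at 62.2, 64.1, 53.1 and 35.8 CPM in TANs of PyMT-Cxcr2-/- mice, with 2 reads in the 4 BM libraries together. Pigr, the epithelial receptor of polymeric immunoglobulin, was at 0.474 to 9.24 CPM in PyMT TANs and at 6.27 to 19.6 CPM in TANs of PyMT-Cxcr2-/- mice, with 0 reads in BM. Epithelial markers (5 genes) summed to 46.7 to 410 CPM in PyMT TANs, 77.8 to 302 in TANs of PyMT-Cxcr2-/- mice and at most 0.400 in BM, and their part was not tested. Trim21, the cytosolic Fc receptor, fell in both (-0.78 and -0.97), and between the genotypes edgeR called 0 of the 7, against 1.98% of all genes.

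The genes with the most similar profile were found by the root mean square difference of centred log2 CPM over the 12 libraries among 11091 genes. For Fcgrt the nearest was Mrc1 (0.42), followed by Steap3 (0.51) and Clec10a (0.51). For Fcgr1 they were Lacc1 (0.43), Lrp12 (0.44) and Rai14 (0.44), which were all under 0.4 CPM on average in BM. Fcgr3 was nearest to Rnf34 (0.07), Rtn3 (0.08) and Pde8a (0.08), and Fcgr4 to Abhd2 (0.09), Pink1 (0.10) and Sos2 (0.11). For Fcer1g they included Gabarap (0.08) and Atp6v1d (0.09), and for Fcgr2b Vps41 (0.15), Stard3nl (0.15) and Slc48a1 (0.15). The points share libraries and depth, and these distances are descriptions.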

How the data were processed

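Neutrophil RNA of 12 mice was depleted of ribosomal RNA and sequenced paired-end from directional libraries. After trimming, the authors used STAR for alignment to mm10 and HTSeq for counting, and the deposited values are raw counts per gene. The authors' own normalization and tests with DESeq2 are not part of the files. The annotation release and strand setting of the counting are not given in the sources used here. Of 55335 Ensembl identifiers, 55154 were matched to GENCODE M21.

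Each comparison was fitted on its 8 libraries with edgeR 4.0.16 in R 4.3.3 (TMM, filterByExpr at its defaults, robust quasi-likelihood test). Depth was 25032704 to 51351569 counts per library. Alternatives were other scalings and filters, 12 libraries in a single fit, no robust estimation, DESeq2 1.42.0, the replicate number as a block, offsets for the trend of each library with GC content and length, and each mouse left out. The procedures were also run on counts simulated from the TAN groups alone, not from BM, and the outcome is not reported here. A replicate number shared between groups marks no shared animal.

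The 6 genes and all lists were chosen with earlier results of these data known. Named genes are the 6, up to 5 of each list and direction with the largest change among those past thresholds, Syk, Tyrobp, Inpp5d, Ptpn6 and B2m by role, the 3 nearest profiles of each gene, and markers. Clec4n, Clec4e, Pira2, Pirb, Fcrls, Pigr and Trim21 were among the largest changes of their lists. Some genes that this rule names are not reported here. Promoters are from RefSeq (GRCm38.p6).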

Additional observations from a re-analysis of the deposited data

Results flagged for a closer look

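Of 42 sets of 4 values looked at (the CPM of each of the 6 genes and the ratios between them, per group), 1 held a mouse far from the other 3. The ratio of Fcgr1 to Fcgr2b per length in PyMT-Cxcr2-/- TANs was 0.685 in mouse 1 against 0.475, 0.489 and 0.475 in the others, and the gap to the nearest was 0.936 of the range. Chance alone passes this limit in about 5% of such sets.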

How the results depend on the processing

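Of 324 refits of a gene's log2 fold change under an alternative, 270 kept their direction and side of the thresholds, 13 passed them newly, 4 no longer passed, and 37 changed sign. Of these 37, 2 had an adjusted p under 0.05 in the reported fit, which were Fcer1g in PyMT TANs against BM after adjustment for GC content and length without (0.035) and with the replicate block (0.014). The others were of genes with an adjusted p above 0.05 in the reported fit. Between the genotypes, library totals gave -0.153 for Fcgr1, -0.028 for Fcgr3 and -0.189 for Fcer1g, and the replicate block gave 0.011 for Fcgrt. Fcer1g there was at -0.021 with a minimum of 1 CPM, -0.149 after adjustment for GC content and length and -0.112 with the block added. Fcgr2b there was at 0.042 with RLE factors, 0.058 without the filter, 0.045 with DESeq2, 0.018 with the block, 0.067 after adjustment for GC content and length and 0.077 with both. Against BM, Fcgr2b was at 0.440 with library totals and 0.061 with a minimum of 1 CPM in PyMT TANs, and in PyMT-Cxcr2-/- TANs at -0.090 with 12 libraries in a single fit, -0.082 after adjustment for GC content and length and -0.105 with the block added. Leaving out a mouse changed the sign in 17 refits, with ranges between the genotypes of -0.127 to 0.225 for Fcgr1, -0.170 to 0.163 for Fcgr2b, -0.036 to 0.085 for Fcer1g and -0.926 to 0.291 for Fcgrt, and for Fcgr2b against BM of -0.196 to 0.119 in PyMT TANs and -0.097 to 0.162 in PyMT-Cxcr2-/- TANs. Of the 6 genes, DESeq2 called 1 between the genotypes in place of 0, where it called 1034 of 32315 genes. With 12 libraries in a single fit, 5 were called in PyMT-Cxcr2-/- TANs against BM in place of 3. That fit called 9711 of 19212 genes. Leaving out a mouse gave 0 between the genotypes, 4 to 5 in PyMT TANs and 3 to 4 in PyMT-Cxcr2-/- TANs against BM.

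Of the 50 signalling genes, 1 was called between the genotypes. This count was 4 without the filter on low counts, 4 with 12 libraries in a single fit, 5 with DESeq2, 0 with the replicate block, 0 after adjustment for GC content and length, 0 with both, and 0 to 3 on leaving out a mouse. Over all genes, 365 were called between the genotypes. This was 597 with library totals (206 higher and 391 lower, in place of 255 and 110), 594 without the filter, 886 with 12 libraries in a single fit, 1034 with DESeq2, 215 after adjustment for GC content and length, 13 with the replicate block and 8 with both, and 23 to 513 on leaving out a mouse, with the lowest count without PyMT mouse 2. The cause was not tested. Library totals moved the median log2 fold change of all genes by 0.44 in PyMT TANs and 0.18 in PyMT-Cxcr2-/- TANs against BM and by -0.19 between the genotypes, and the share of higher calls in PyMT TANs against BM went from 56.4% to 72.8%.

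Same-numbered mice of different groups had a mean correlation of deviations of -0.0415 (-0.208 to 0.0872), and mice of other numbers 0.0141 (-0.338 to 0.318). The labels do not say whether a shared number marks a batch, which was not tested. With the replicate block, Fcgr4 between the genotypes had an adjusted p of 0.304 by edgeR. Nearest genes were the same for 16 of 18 with a prior count of 0.5. Depth limits Fcgr1 and Fcgrt in BM, where Fcgr1 had 2 to 22 reads per library.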
